A study of Mus musculus with 48 samples.

Results

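The genes described here are the cytochrome P450 genes of families 1 to 4 in the mouse. They were chosen by name only: every protein-coding gene of the GENCODE M21 annotation whose symbol is Cyp, a family number from 1 to 4, 1 lower-case letter and digits. The rule gave 75 genes, all listed in the tables, out of 22055 listed genes: 3 in family 1, 48 in family 2, 7 in family 3 and 17 in family 4. Near-identical copies whose symbols end in a letter, such as Cyp4a12a, fall outside the rule. Levels were measured by RNA-seq of polyadenylated RNA (message) and by Ribo-seq, which sequences the fragments protected by ribosomes (footprints). The animals were wild-type C57BL/6 mice, and the organs were lung, liver, kidney, heart, retina and brain. Embryos were taken on day 15.5 (E15.5) and young adults on day 42 after birth (P42). No treatment or altered allele is given for any group. Each of the 24 groups of tissue, stage and assay held 2 libraries labelled as biological replicates, 48 libraries in all. P-values therefore rest on the spread between 2 replicates, pooled over groups. Neither the animals' sex nor any pooling of embryos is stated by the labels.

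Cytochrome P450 enzymes are heme proteins that insert an oxygen atom into their substrates. Those of families 1 to 4 sit in the membrane of the endoplasmic reticulum and draw electrons from P450 oxidoreductase and cytochrome b5. Families 1, 2 and 3 are best known for oxidising drugs, toxicants, steroids and bile acids, and family 4 for hydroxylating the ends of fatty acids and eicosanoids. Hepatocytes of the adult liver, proximal tubule cells of the kidney and club cells of the airways are textbook sites of high P450 expression. Many members lie in gene clusters: 14 of the 15 Cyp2c genes on chromosome 19 (all but Cyp2c23), 8 Cyp2d genes on chromosome 15, 6 of the 7 Cyp3a genes on chromosome 5 (all but Cyp3a13) and 8 Cyp2j genes on chromosome 4.

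Values are TPM, a gene's length-corrected share of a library's transcripts, scaled within each library, and depth is unknown. Each pair of levels below gives replicate 1, then replicate 2, and each difference is on the log2(TPM + 1) scale with its standard error. The 2 stages come from separate deposited tables, so a difference between tables cannot be told apart from a difference between stages. A gene was called when limma gave a Benjamini-Hochberg adjusted p below 0.05 over all tested genes and a log2 difference of at least 1. A call is said below to hold under every scaling when it was also made after median-of-ratios scaling and after centring on the median gene. In these whole-organ samples, fewer cells of a type and less RNA per cell cannot be told apart.

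Markers of other organs were present in several libraries. Liver genes appeared at trace level in the Ribo-seq libraries of other adult organs. Of members at 50 TPM or more in P42 liver RNA-seq and under 1 TPM in brain RNA-seq, 28 had a median footprint level in P42 brain of 0.783% of that in liver. The 9 hepatocyte markers at that floor, such as Alb and Apoa1, had a median of 0.731% in the same libraries. In P42 heart the medians were 0.445% for 30 members and 0.523% for the markers, in kidney 0.113% and 0.110%, in lung 0.147% and 0.169%, and in retina 0.00724% and 0.00670%. In RNA-seq of the same 5 organs these members had medians of 0 to 0.0239% of liver, being chosen for under 1 TPM there. The hepatocyte markers, chosen without that limit, had RNA-seq medians of 0.000456% to 0.0200% of liver. Kidney genes differed between replicates in 2 adult tissues: in lung Ribo-seq the median of 6 kidney members was 3.54% of kidney in replicate 1 and 0.110% in replicate 2, and that of 8 proximal tubule markers 3.04% and 0.0117%. In retina Ribo-seq the 9 kidney members had medians of 0 in replicate 1 and 0.940% in replicate 2, and the markers 0.00489% and 0.941%. Kidney members were chosen without regard to their level in liver. Of those at 50 TPM or more in P42 kidney RNA-seq, 1 was under 1 TPM in liver. In P42 brain and heart Ribo-seq the kidney members and markers differed, with medians of 1.06% and 0.0668% in brain and 1.06% and 0.306% in heart. The liver members moved with the liver markers in these libraries, and the part of other organs' RNA in them was not tested. In E15.5 brain Ribo-seq the medians were higher, 2.55% of liver for 8 members and 2.56% for the hepatocyte markers, and in E15.5 lung 1.22% for 9 members and 0.995% for the markers. These embryonic libraries are the baseline of the footprint changes in brain and lung.

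In the embryo, E15.5 kidney RNA-seq held 3954 and 2334 TPM of the 10 hepatocyte markers summed and 971 and 566 TPM of 7 adrenal cortex markers. At P42 these kidney sums were 85.5 and 77.5 TPM for the hepatocyte markers, with 1.69 and 2.03 TPM for the adrenal ones. Of the 4 Y-linked genes examined, the E15.5 liver RNA-seq libraries summed to 57.3 and 0.563 TPM and the E15.5 liver Ribo-seq libraries to 23.1 and 4.70 TPM, replicate 2 being low in both, against 33.2 and 29.8 TPM in P42 liver RNA-seq. The genes in the tables accounted for 48.9% to 93.4% of the TPM scale in RNA-seq libraries, and in Ribo-seq libraries for 23.1% to 61.1%. The 48.9% was that of E15.5 kidney RNA-seq replicate 2, against 81.7% in replicate 1. The E15.5 kidney sums above were not corrected for this.

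**Figure D1:**
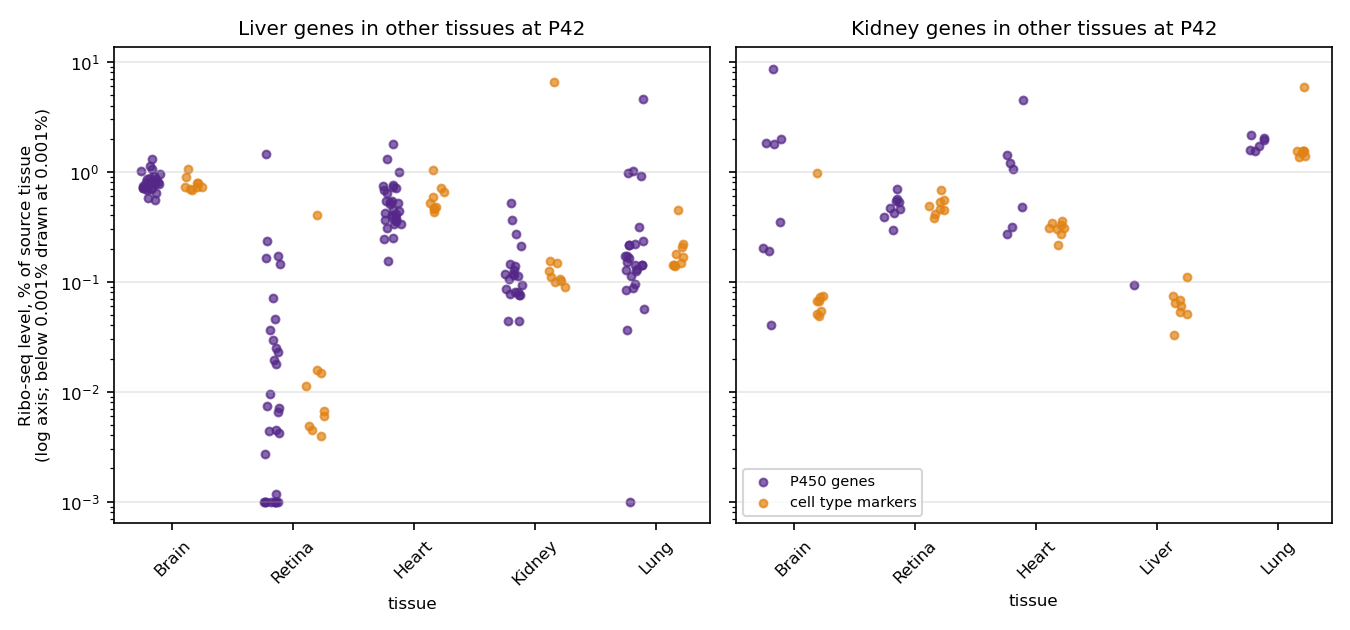
Ribo-seq level in other P42 tissues as a percent of the source tissue (log axis), one point per gene: liver genes on the left and kidney genes on the right, P450 genes in purple and markers of hepatocytes or proximal tubule in orange. In brain and heart the liver P450 genes cluster near 0.783% and 0.445%, beside the markers, and in retina they are mostly below 0.1%.

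Adult liver held the highest summed P450 message of the 6 organs. The 75 genes summed to 20302 and 21506 TPM in P42 liver, against 3837 and 4047 TPM in kidney and 4005 and 3450.5 TPM in lung. Adult brain reached 143 and 149.6 TPM, retina 121 and 131 TPM and heart 35.00 and 35.6 TPM. At E15.5 the liver libraries stood at 559.7 and 455 TPM, kidney at 216 and 125 TPM and lung at 134 and 134 TPM. The 2 E15.5 kidney libraries differed in listed share, as given above. Of the listed TPM in them, the 75 genes held 0.0264% and 0.0255%. The 2 stages did not overlap in liver, kidney or lung. In the other organs the E15.5 sums were 81.8 and 86.2 TPM in retina, 74.9 and 71.8 TPM in brain and 47.4 and 45.3 TPM in heart. Heart was the organ whose adult libraries both lay below both embryonic ones. Footprints summed to 15590.2 and 23979 TPM in P42 liver, 4303 and 3589 TPM in kidney and 3993 and 3849 TPM in lung.

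The adult organs also differed in how many of the 75 genes carried that sum. By mean RNA-seq level, 51 members reached 1 TPM in P42 liver, 43 reached 10 TPM and 29 reached 100 TPM. In P42 kidney 28 members reached 1 TPM and 8 reached 100 TPM, and in lung 20 and 3. No member reached 100 TPM in adult brain, retina or heart. Cyp2e1 alone made up 37.8% of the liver sum, Cyp2j5 30.8% of the kidney sum and Cyp2f2 70.5% of the lung sum. In lung the top 3 members (Cyp2f2, Cyp2b10 and Cyp4b1) held 90.9%, in liver the top 3 (Cyp2e1, Cyp3a11 and Cyp2f2) 49.3%. In E15.5 liver 1 member, Cyp2d26, reached 100 TPM. In total 11 genes stayed below 1 TPM in all 48 libraries: Cyp2b19, Cyp2b23, Cyp2c65, Cyp2c66, Cyp2d11, Cyp2j8, Cyp2w1, Cyp3a57, Cyp4a29, Cyp4f37 and Cyp4f40.

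**Figure D2:**
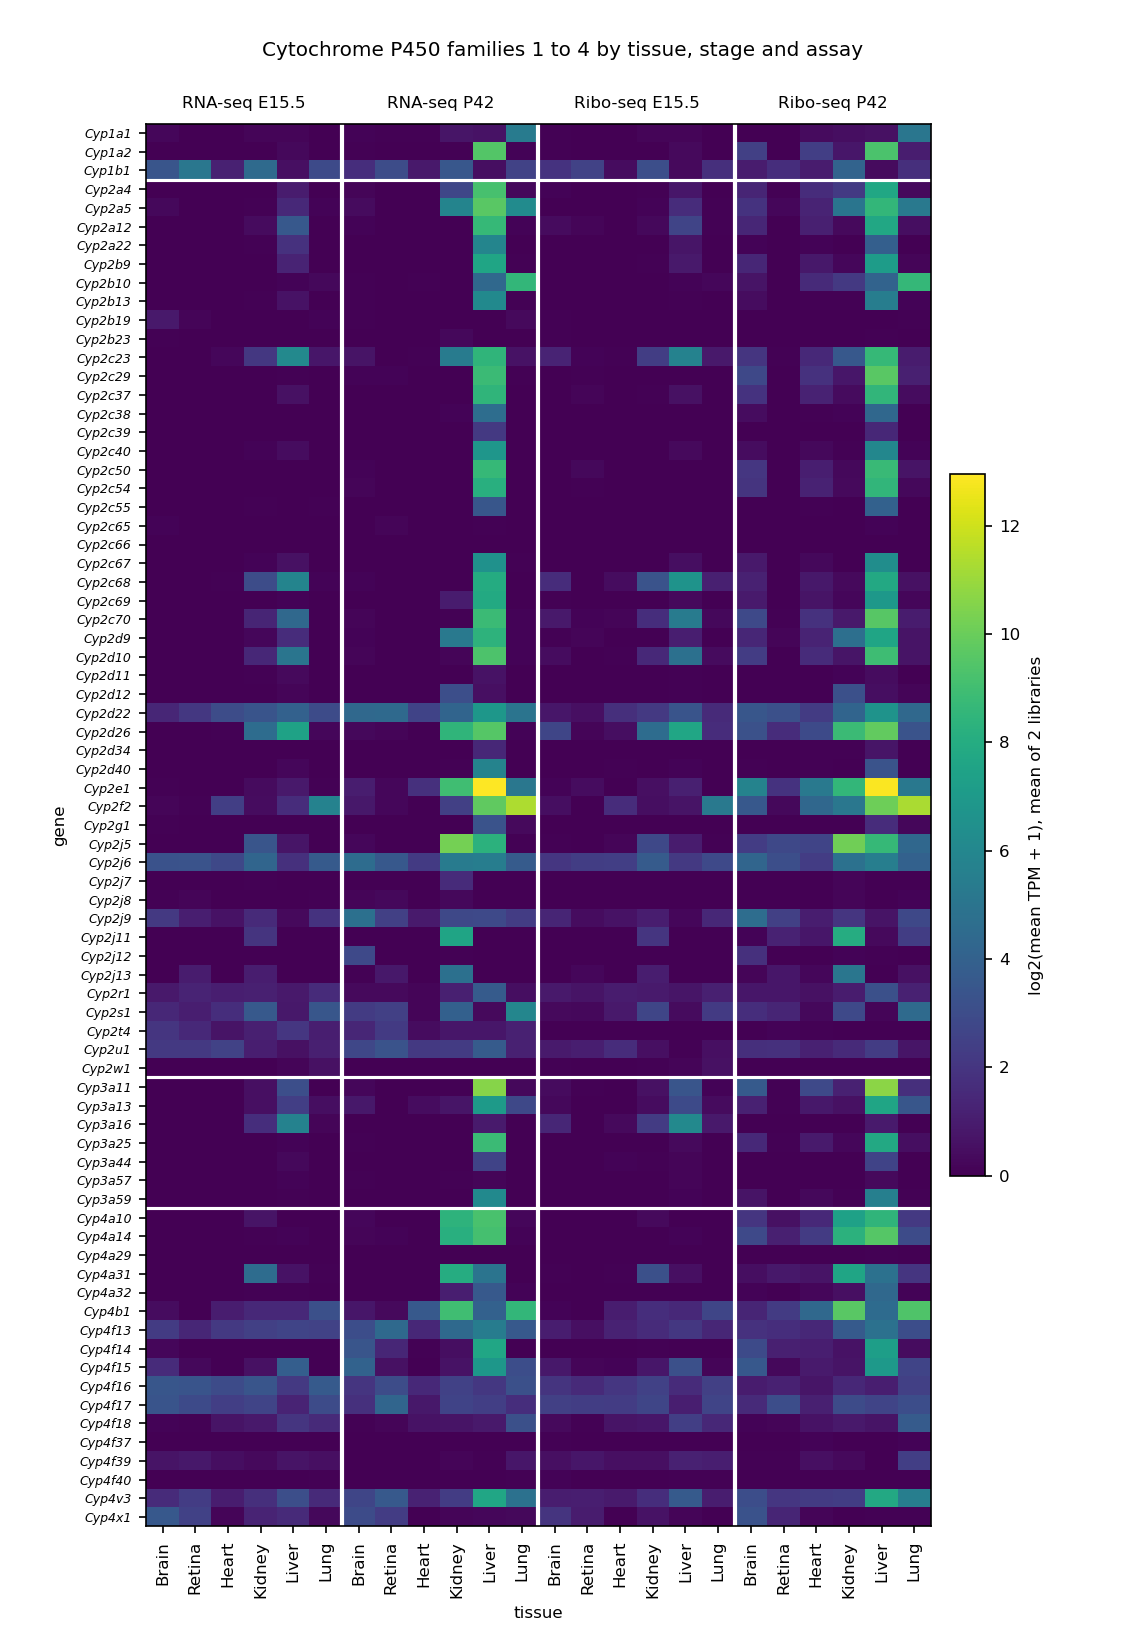
Level of each of the 75 genes (rows, grouped by family with white lines) in each tissue, stage and assay (columns), as log2 of the mean TPM of 2 libraries plus 1. The P42 liver columns are filled across families 2, 3 and 4, kidney and lung hold smaller sets, and the embryonic columns are mostly dark.

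Between stages, nearly all of the tested liver P450 genes rose. In liver 54 of the 75 members passed the filter on low values (1 TPM in 2 libraries and as the mean over the tissue's libraries) and could be tested by RNA-seq. Of these, 49 were called higher at P42, where 13.4% of all tested genes were, and 4 lower, where 47% of all genes were. All 49 rises held under every scaling. Of the 49, 28 were below 1 TPM in both E15.5 libraries and passed the filter through P42, so their direction was fixed by it. Without replicate 1 or 2 of P42 liver RNA-seq the rises numbered 32, because 37 members then passed the filter. Of 6 erythroid markers in liver, 6 fell, with a median of -7.06, from summed levels of 26352 and 29019.9 to 285 and 195 TPM, and of 10 hepatocyte markers 8 rose and 1 fell, with a median of 1.96. The part of these cell types in the liver differences was not tested. Of the 4 falls, that of Cyp3a16 held. The tested members had a median difference of 4.56 and all tested genes one of -0.89, the shift that centring removes. In kidney 29 members were tested, 20 were called higher (background 13.1%) and 2 lower (background 43.9%). In lung 21 were tested, with 13 higher (background 10.1%) and 2 lower (background 53.5%). The rises in both organs held under every scaling, as did 1 of the 2 kidney falls (Cyp2c68) and neither lung fall. Of these rises, 9 in kidney and 6 in lung were of members below 1 TPM in both E15.5 libraries. The filter fixed the direction of these, and of each rise given below from under 1 TPM in both E15.5 libraries. The all-gene medians were -0.81 in kidney and -1.11 in lung. The markers of the proximal tubule rose in kidney (8 of 8, median 5.47) and those of airway cells in lung (4 of 5, median 6.34), and their part in the P450 differences was not tested. How many of these markers passed the filter only through P42 is not given here.

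The organs with low P450 totals gave fewer calls. In brain 15 members were tested, 7 were called higher (background 11.7%) and 3 lower (background 36%). In retina 12 were tested, with 7 higher (background 18.6%) and 1 lower (background 24.7%). In heart 12 were tested, with 2 higher (background 2.73%) and 4 lower (background 74.6%). All rises in these 3 tissues held under every scaling, as did the fall of Cyp1b1 in brain and in retina. None of the 4 heart falls did: the all-gene median in heart was -1.61, and after either rescaling 6 members were called higher there. The share of all genes called higher after rescaling is not given here, so the 6 describe only the dependence on scaling. The all-gene medians were -0.60 in brain and -0.23 in retina.

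Footprints gave like counts in liver and kidney and more calls in brain, heart and lung. In liver 50 members were tested, 47 were called higher (background 10.2%) and 2 lower (background 44%), and all 47 were also called higher by message. In kidney 30 were tested, with 21 higher (background 12.2%) and 3 lower (background 40.2%). In lung 27 were tested, with 22 higher (background 18.6%) and 0 lower (background 22.8%). In brain, where the hepatocyte markers stood at 0.731% of liver, 31 were tested, with 22 higher (background 20.2%) and 0 lower (background 17.7%). In heart 19 were tested, with 13 higher (background 10.2%) and 2 lower (background 50.6%). In retina 14 were tested, with 4 higher (background 21.3%) and 0 lower (background 16.2%). Of the rises, 28 in liver, 17 in brain, 12 in lung, 10 in kidney, 10 in heart and 4 in retina were of members below 1 TPM in both E15.5 libraries. At an unadjusted p below 0.05 limma put 3 members lower in brain, 1 in retina and 0 in lung. In brain these were Cyp1b1 (-0.93), Cyp4f16 (-0.94) and Cyp4f17 (-0.91), and in retina Cyp1b1 (-0.84). Their adjusted p in limma was also below 0.05, and they missed only the limit of 1 on the log2 difference. When calls at under 5% of the level in the highest tissue were left out, a limit chosen after seeing the data, the brain rises went from 22 to 7, the heart rises from 13 to 0 and the lung rises from 22 to 14. The liver rises went from 47 to 45 and the kidney rises from 21 to 17. By its rule this limit drops calls of genes far higher in another organ. The share of all genes left by it is not given here. Without replicate 1 of P42 lung the lung rises numbered 13, and without replicate 2 of P42 heart the heart rises numbered 7.

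**Figure D3:**
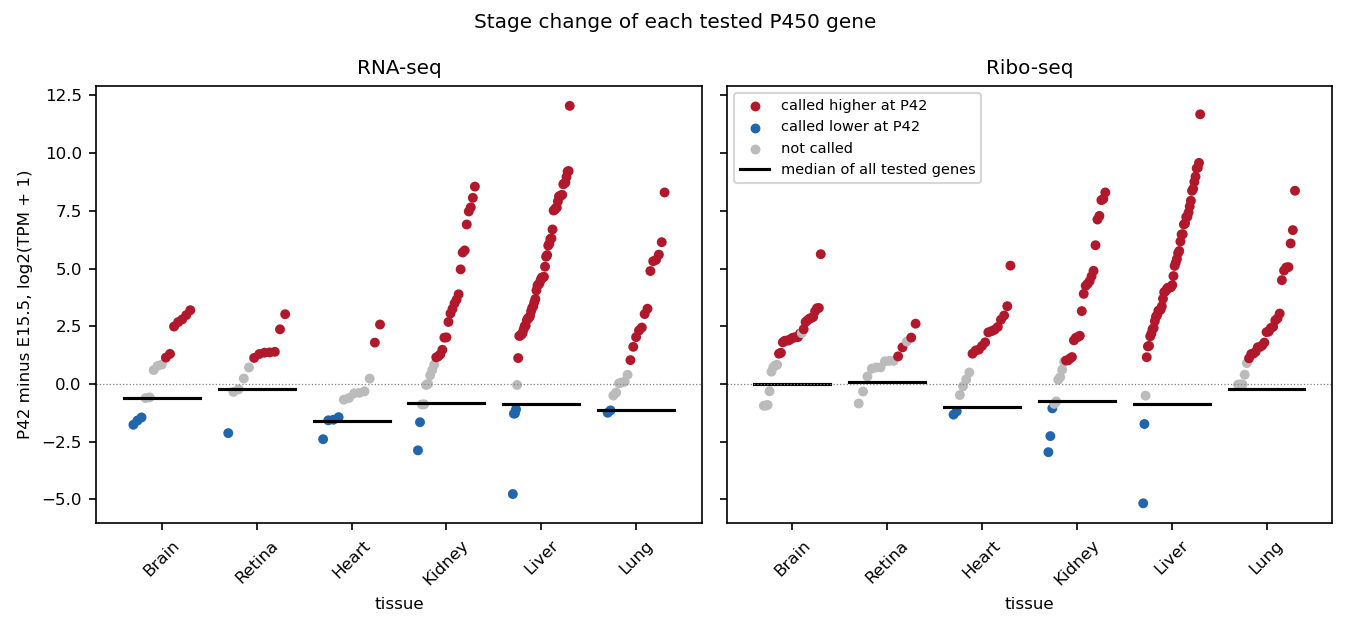
Stage difference (P42 minus E15.5, log2(TPM + 1)) of each tested P450 gene by tissue for RNA-seq (left) and Ribo-seq (right). Red points were called higher at P42, blue lower and grey not called, and black bars are the median of all tested genes. Liver points reach 12.05 by RNA-seq, while no point in brain or retina RNA-seq exceeds 3.20.

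The organs with the highest level were compared next. A gene was placed in a tissue when it was higher there than in each of the other 5 by the same call rule. By P42 message 64 members were tested and 52 were placed. Liver took 38 (background 3.42%), kidney 6 (background 4.18%), lung 5 (background 6.95%) and brain 2 (background 7.47%). Retina took 1 (background 15.1%) and heart 0 (background 1.42%). The kidney genes were Cyp2d12, Cyp2j5, Cyp2j7, Cyp2j11, Cyp2j13 and Cyp4a31, the lung genes Cyp1a1, Cyp2b10, Cyp2f2, Cyp2s1 and Cyp4f18, the brain genes Cyp2j9 and Cyp2j12, and the retina gene Cyp4f17. The retina placement was lost after median-of-ratios scaling and after centring. By P42 footprints 61 members were tested. Liver took 37 (background 3.27%), kidney 5 (background 3.52%), lung 5 (background 9.87%), brain 3 (background 10.9%), retina 0 (background 2.87%) and heart 0 (background 5.03%). At an unadjusted p below 0.05 limma placed 0 members in heart by either layer and 0 in retina by footprints. Of the members placed in liver, 18 by message and 12 by footprints reached 1 TPM in no library outside P42 liver, so the filter fixed their placement. The other 20 and 25 reached 1 TPM elsewhere too. The layers shared 36 liver genes, which is 94.7% of the message list and 97.3% of the footprint list. They shared 4 genes in kidney, 4 in lung and 2 in brain. Cyp2j5 and Cyp2j7 in kidney, Cyp2f2 in lung, Cyp4f17 in retina and Cyp2d26 and Cyp2d34 in liver were placed by message alone. Cyp1b1 in kidney, Cyp4f39 in lung, Cyp4x1 in brain and Cyp4f13 in liver were placed by footprints alone. Without replicate 1 or 2 of P42 liver RNA-seq, 22 or 20 members were placed in liver by message, because members above 1 TPM in no other group then had 1 library and were not tested. Without replicate 2 of P42 liver Ribo-seq 24 were placed there by footprints.

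At E15.5 20 of the same 64 genes were placed. Liver took 14 (background 6.26%), kidney 3 (background 1.79%), lung 2 (background 2.74%), brain 1 (background 7.34%), retina 0 (background 2%) and heart 0 (background 2.9%), with 1 each in retina and heart at an unadjusted p below 0.05 in limma. Of the 14 liver genes, 13 were also liver genes at P42. The exception was Cyp3a16. The kidney genes Cyp2j5, Cyp2j11 and Cyp4a31 and the lung gene Cyp2f2 were placed in the same organ at both stages by message.

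Family 1 holds Cyp1a1 and Cyp1a2, neighbours on chromosome 9 that oxidise aromatic compounds and are classical targets of the aryl hydrocarbon receptor, and Cyp1b1, which oxidises oestrogens and retinoids and whose human counterpart is mutated in congenital glaucoma. The promoters of Cyp1a1 and Cyp1a2 are shown because these neighbours were placed in different organs: the 250 bases before the RefSeq start, GRCm38.p6, at chr9:57697363-57697612 on the plus strand and chr9:57683656-57683905 on the minus strand, with the TATA box (TATAAA) in capitals.
Cyp1a1: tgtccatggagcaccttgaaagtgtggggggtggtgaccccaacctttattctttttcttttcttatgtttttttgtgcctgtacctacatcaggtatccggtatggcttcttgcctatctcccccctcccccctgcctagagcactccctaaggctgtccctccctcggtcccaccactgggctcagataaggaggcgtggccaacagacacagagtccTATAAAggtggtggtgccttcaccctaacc
Cyp1a2: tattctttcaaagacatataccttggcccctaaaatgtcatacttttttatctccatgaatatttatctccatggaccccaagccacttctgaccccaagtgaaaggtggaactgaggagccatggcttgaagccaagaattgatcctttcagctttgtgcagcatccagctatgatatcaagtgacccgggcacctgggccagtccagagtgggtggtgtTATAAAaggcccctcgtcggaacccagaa
The TATA box starts 30 bases before the start in Cyp1a1 and 29 in Cyp1a2. Aligned without gaps at the best shift of up to 5 bases, 30.6% of bases were the same.

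Cyp1a1 was a lung message. It stood at 0 and 0.0644 TPM in E15.5 lung and 46.7 and 34.5 TPM in P42 lung. The rise was 5.32 ± 0.13 (adjusted p = 2.08e-19), and its direction was fixed by the filter, which the gene passed through P42. In P42 liver it stood at 0.593 and 0.496 TPM and in P42 kidney at 0.597 and 0.725 TPM. Lung footprints rose by 5.05 ± 0.14.

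Cyp1a2 was a liver message. It stood at 0.150 and 0.243 TPM in E15.5 liver and 798 and 622 TPM in P42 liver, a rise of 9.20 ± 0.12 (adjusted p = 7.31e-25). The filter, passed through P42, fixed the direction of this rise as well. The mean of Cyp1a2 was below 0.1 TPM in RNA-seq of every other adult tissue. Footprints in adult brain, at 3.70 and 5.18 TPM, and heart, at 2.30 and 6.24 TPM, were 0.712% and 0.685% of the liver level, close to the hepatocyte markers there.

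Cyp1b1 was the family 1 message of the embryo and of the eye. Its highest level was in E15.5 retina at 31.1 and 37.4 TPM, and it stood at 6.32 and 7.81 TPM at P42. The groups did not overlap, and the fall of 2.13 ± 0.23 held under every scaling (adjusted p = 3.51e-08). In brain it went from 9.78 and 9.87 to 2.77 and 1.68 TPM, a fall of 1.77 ± 0.23. Kidney message stood at 27.4 and 15.1 TPM in embryos and 9.74 and 11.5 TPM in adults, and that difference of -0.89 ± 0.23 was under the limit of 1 and not called (adjusted p = 0.0015). After median-of-ratios scaling the kidney message difference was -0.00038 and after centring -0.08. Kidney footprints went from 8.03 and 7.16 to 17.4 and 15.6 TPM, a called rise of 1.03 ± 0.17 that held under every scaling.

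**Figure D4:**
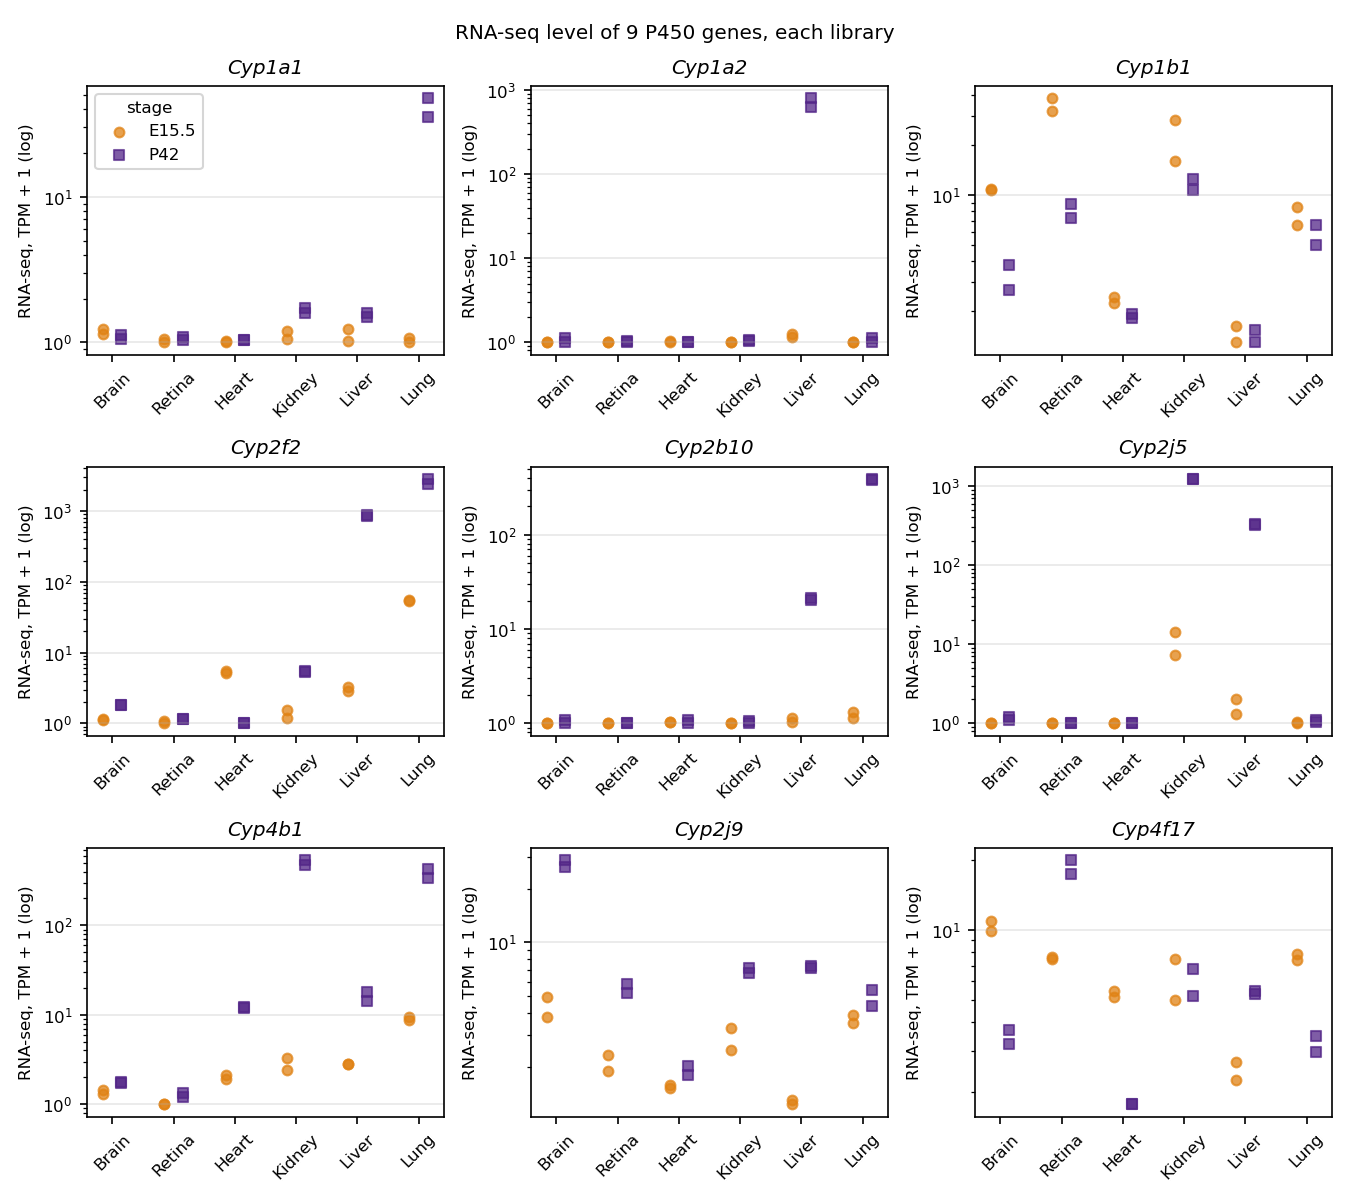
RNA-seq level (TPM + 1, log axis) of 9 P450 genes in every library by tissue, with E15.5 as orange circles and P42 as purple squares. Cyp1a1 and Cyp2b10 are high in adult lung, Cyp1a2 in adult liver, Cyp2j5 in adult kidney and Cyp2j9 in adult brain, and Cyp1b1 is highest in embryonic retina.

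Cyp2e1, which oxidises ethanol and acetaminophen, was the most abundant member. In liver it stood at 0.839 and 0.876 TPM in embryos and 7296 and 8492 TPM in adults. The rise of 12.05 ± 0.34 was the largest of any tested member in RNA-seq (adjusted p = 9.13e-19). Its direction was fixed by the filter, which Cyp2e1 passed in liver through P42. Footprints went from 1.37 and 1.06 to 5878 and 8957 TPM. In kidney message went from 0.397 and 0.249 to 534 and 459 TPM, the largest rise there at 8.55 ± 0.34. Adult lung libraries stood at 49.8 and 17.99 TPM, a wide spread, and adult heart libraries at 2.26 and 2.80 TPM. The heart level was 0.032% of the liver level. The gene lies at chr7:140763739-140774987 on the plus strand, and its promoter (chr7:140763569-140763818), shown as that of the gene with the largest change, has a TATA box 31 bases before the start.
Cyp2e1: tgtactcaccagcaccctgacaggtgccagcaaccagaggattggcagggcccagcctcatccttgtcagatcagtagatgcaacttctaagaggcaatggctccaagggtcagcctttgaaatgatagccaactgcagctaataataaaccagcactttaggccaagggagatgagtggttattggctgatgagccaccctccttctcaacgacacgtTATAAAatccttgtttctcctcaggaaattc

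The Cyp2a genes, which hydroxylate coumarin, nicotine and testosterone, were liver messages with Cyp2a5 also present in lung and kidney. Cyp2a5 stood at 2.00 and 1.69 TPM in E15.5 liver and 709 and 888 TPM in P42 liver, a rise of 8.13 ± 0.15. In lung it went from 0.0935 and 0.0865 to 80.2 and 72.2 TPM and in kidney from 0.0459 and 0.0371 to 52.6 and 60.7 TPM. Its copy Cyp2a4 stood at 623 and 528 TPM in P42 liver, 4.18 and 7.46 TPM in P42 kidney and 0.223 and 0.226 TPM in P42 lung. Both lung values of Cyp2a4 were therefore far below those of Cyp2a5. The pair shares 61.9% (Cyp2a4) and 59.4% (Cyp2a5) of their 28-base words with transcripts of other annotated genes, so reads may not be separable. Their promoters (chr7:26306942-26307191 and chr7:26835089-26835338, both plus strand) are shown because 245 of 249 aligned bases, or 98.4%, are the same. Capitals mark the TATA box and GTTAAT, the core of sites of the liver factor HNF1.
Cyp2a4: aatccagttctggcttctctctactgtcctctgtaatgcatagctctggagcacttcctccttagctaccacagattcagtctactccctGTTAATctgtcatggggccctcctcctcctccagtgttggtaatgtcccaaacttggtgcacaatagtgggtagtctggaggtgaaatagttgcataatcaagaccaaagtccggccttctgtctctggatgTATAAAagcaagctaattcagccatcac
Cyp2a5: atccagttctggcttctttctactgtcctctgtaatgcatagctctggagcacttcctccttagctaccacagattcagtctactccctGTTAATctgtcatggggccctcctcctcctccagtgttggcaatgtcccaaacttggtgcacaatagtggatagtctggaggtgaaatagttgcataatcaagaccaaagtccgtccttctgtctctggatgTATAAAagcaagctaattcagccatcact
The TATA box starts 28 and 29 bases before the start and GTTAAT 160 and 161 bases before it.

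Among the Cyp2b genes, the family known for induction by phenobarbital through the receptor CAR (Nr1i3), Cyp2b10 was highest in lung. It stood at 0.321 and 0.127 TPM in E15.5 lung and 386 and 380.3 TPM in P42 lung, the largest lung rise at 8.30 ± 0.11 (adjusted p = 3.15e-23). The filter, passed in lung through P42, fixed the direction of that rise. In P42 liver Cyp2b10 stood at 19.5 and 20.3 TPM, 5.19% of the lung level. Cyp2b9 and Cyp2b13, both female-predominant in adult mouse liver, were liver messages instead. Cyp2b9 went from 1.61 and 1.34 to 179.7 and 206 TPM and Cyp2b13 from 0.604 and 0.448 to 55.96 and 84.1 TPM. Their rises were 6.29 ± 0.10 and 5.51 ± 0.13.

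The 15 Cyp2c genes made up 14.4% of the P450 sum in P42 liver and 28.6% in E15.5 liver. Several, such as Cyp2c29, were close to absent in the embryo: 0 and 0.114 TPM in embryos and 418 and 479 TPM in adults, a rise of 8.73 ± 0.11. Cyp2c23 (also called Cyp2c44), an epoxygenase of arachidonic acid, was already present in E15.5 liver at 67.5 and 66.7 TPM and stood at 402 and 299.5 TPM at P42. Cyp2c70, which makes the muricholic bile acids of mice, went from 24.7 and 14.1 to 413 and 492 TPM, a rise of 4.52 ± 0.19.

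Cyp2c68 changed in opposite directions in liver and kidney. Liver message went from 70.4 and 43.5 to 254 and 242 TPM, a rise of 2.15 ± 0.22. Kidney message went from 9.67 and 4.32 to 0.0276 and 0.0286 TPM, a fall of 2.87 ± 0.22 that held under every scaling. Its E15.5 kidney level was 12.3% of that in E15.5 liver, in the libraries that held the hepatocyte markers above, where their median was 4.79% of liver, and the part of liver RNA in it was not tested. Of its 28-base words 65.8% occur in transcripts of other genes.

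The Cyp2d genes gave the largest share of the embryonic liver sum, 44.8%, against 9.07% at P42. Cyp2d26 stood at 194 and 161 TPM in E15.5 liver and 718 and 785 TPM in P42 liver, a rise of 2.08 ± 0.20. In kidney it went from 28.5 and 17.9 to 320.4 and 379 TPM. Cyp2d9, a male-predominant testosterone hydroxylase, went from 2.39 and 1.92 to 354 and 298 TPM in liver and from 0.323 and 0.0578 to 32.5 and 39.8 TPM in kidney. Cyp2d22, the Cyp2d gene most often compared with human CYP2D6, was the one member of its subfamily tested by message in brain, retina and heart. It went from 1.78 and 1.41 to 19.4 and 19.6 TPM in brain, a rise of 2.98 ± 0.19, and from 3.28 and 3.14 to 19.5 and 22.2 TPM in retina, a rise of 2.37 ± 0.19. In heart it stood at 7.18 and 6.80 and 4.72 and 5.54 TPM, and that change was not called (adjusted p = 0.059).

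Cyp2f2, which bioactivates naphthalene in club cells, was the dominant lung member and also a liver gene. Lung message went from 53.9 and 51.8 to 2819.9 and 2436 TPM, a rise of 5.61 ± 0.16 (adjusted p = 4.69e-18). Liver message went from 2.31 and 1.90 to 881 and 858 TPM. At P42 the lung message exceeded that of each other tissue by at least 1.59, while by footprints the gene was not placed in any tissue. The gene lies at chr7:27119909-27133660 and none of its 28-base words occurs in a transcript of another gene.

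In heart Cyp2f2 moved in opposite directions in the 2 layers. Message stood at 4.51 and 4.16 TPM in embryos and 0.0156 and 0.0174 TPM in adults, a fall of 2.39 ± 0.16 that was not kept under every scaling. Footprints stood at 0.0327 and 4.28 and 10.4 and 28.2 TPM, a called rise of 2.97 ± 0.63. The sum of the 5 airway club and ciliated cell markers moved with it: 40.8 and 42.9 TPM in E15.5 heart RNA-seq, 1.14 and 1.28 TPM in P42 heart RNA-seq, 0.323 and 40.1 TPM in E15.5 heart Ribo-seq and 357 and 1252 TPM in P42 heart Ribo-seq. In P42 kidney Ribo-seq Cyp2f2 stood at 13.01 and 54.9 TPM and the markers at 565 and 2196 TPM, with 4.39 and 4.50 TPM of Cyp2f2 in RNA-seq. The part of airway RNA in these values was not tested.

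The Cyp2j genes, epoxygenases of arachidonic acid, held 37.5% of the P450 sum in P42 kidney and were spread over organs by member. Cyp2j5 went from 13.1 and 6.23 to 1216 and 1212 TPM in kidney, a rise of 6.91 ± 0.22, and stood at 326 and 319 TPM in P42 liver. Cyp2j9 was highest in adult brain: 3.94 and 2.79 TPM in embryos and 27.9 and 25.6 TPM in adults, a rise of 2.68 ± 0.17. Its retina rise was 1.39 ± 0.17, to 4.21 and 4.83 TPM. Cyp2j12 was placed in brain: 0 and 0.0489 TPM in embryos, 4.88 and 7.63 TPM in adults, and a mean under 0.1 TPM in RNA-seq of every other group. Cyp2j6 was present in every organ at both stages, with 22.7 and 22.7 TPM in P42 brain, 45.1 and 41.6 TPM in P42 liver and 3.78 and 3.46 TPM in P42 heart.

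Of the remaining family 2 members named here, Cyp2s1 was placed in lung and Cyp2r1 in liver by both message and footprints at P42. Cyp2r1, a vitamin D hydroxylase, went from 0.999 and 0.695 to 13.7 and 10.9 TPM in liver. In lung it went from 2.29 and 1.78 to 0.498 and 0.253 TPM, a fall of 1.14 ± 0.18 that was not kept under every scaling. Cyp2s1 rose in lung from 9.22 and 11.2 to 65.7 and 54.4 TPM. In heart it went from 2.25 and 2.28 to 0.0897 and 0.143 TPM, a fall of 1.55 ± 0.20 as deposited and a difference of 0.06 after centring. Cyp2u1, a fatty acid hydroxylase whose human counterpart is mutated in a hereditary spastic paraplegia, stood at 8.19 and 9.42 TPM in P42 retina and 11.1 and 13.6 TPM in P42 liver. It rose in retina by 1.13 ± 0.16 and in liver by 3.15 ± 0.16. Cyp2t4 had message without matching footprints. Its E15.5 brain libraries stood at 3.08 and 2.94 TPM and its P42 retina libraries at 3.38 and 3.84 TPM, while footprints were at most 0.151 TPM in any Ribo-seq library. Its exons overlap those of Egln2, and the sources used here do not say whether reads were counted by strand.

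Family 3 holds the Cyp3a genes, whose adult liver forms oxidise steroids and many drugs, and here the fetal form fell and the main adult form rose. Cyp3a16, known as the fetal form, stood at 63.00 and 41.4 TPM in E15.5 liver and 0.983 and 0.848 TPM in P42 liver. The fall of 4.77 ± 0.15 was the largest of any tested member and held under every scaling (adjusted p = 7.86e-18). Footprints fell with it, from 67.9 and 65.3 to 0.667 and 1.12 TPM. Cyp3a11, the main adult form and a target of the receptor PXR (Nr1i2), went from 9.03 and 6.12 to 1535 and 1554 TPM, a rise of 7.52 ± 0.17.

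Other Cyp3a members rose to lower levels. Cyp3a13 went from 5.31 and 3.41 to 133 and 129.6 TPM in liver and from 0.393 and 0.394 to 6.29 and 5.61 TPM in lung. Cyp3a44, a female-predominant form, went from 0.269 and 0.143 to 7.73 and 2.48 TPM, the adult libraries lying well apart. In E15.5 kidney Cyp3a16 stood at 2.75 and 1.64 TPM, 4.21% of the E15.5 liver level, and was listed at 0 in both P42 kidney libraries. The hepatocyte markers in E15.5 kidney had a median of 4.79% of liver, and the part of liver RNA in this kidney level was not tested. Of the words of Cyp3a11 and Cyp3a16, 37.5% and 30.9% occur in transcripts of other genes.

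**Figure D5:**
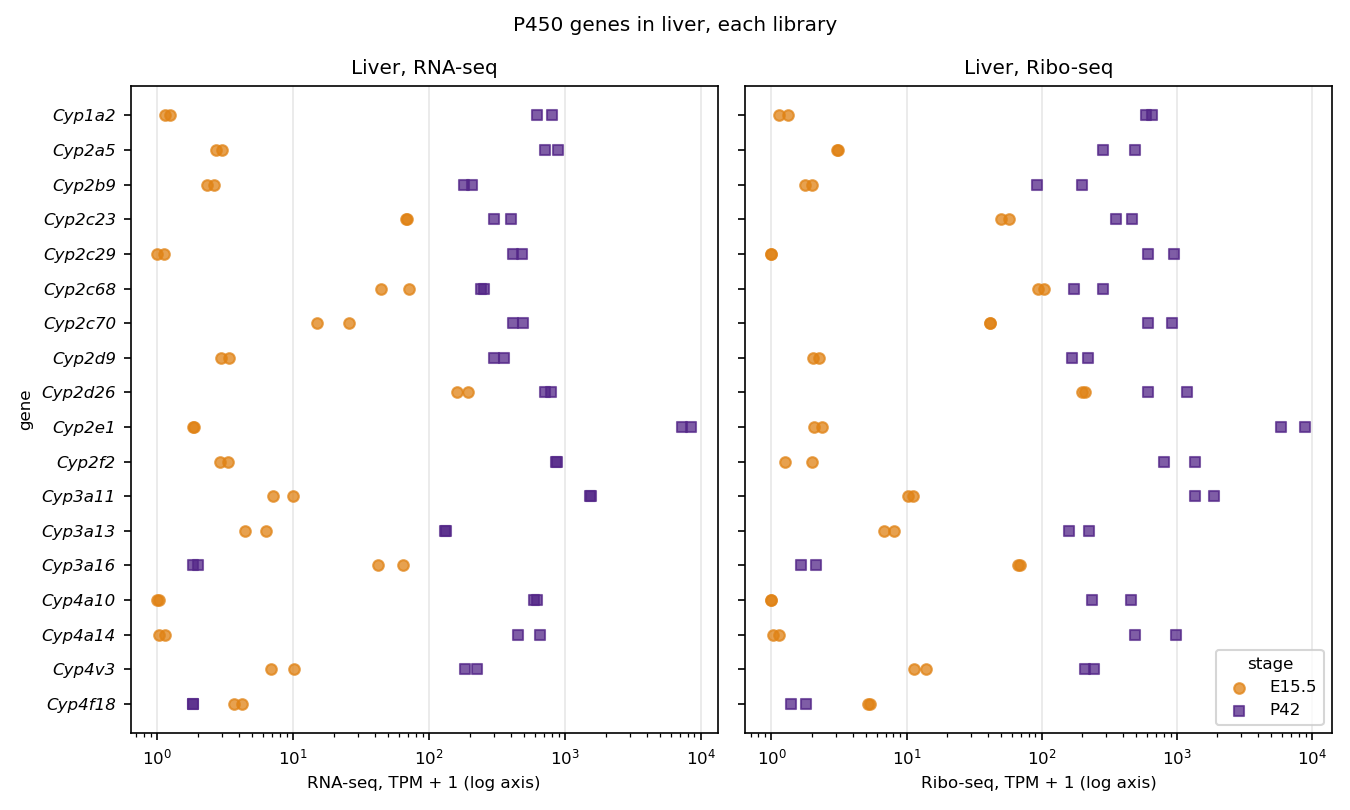
Level of 18 P450 genes in each liver library (TPM + 1, log axis) by RNA-seq (left) and Ribo-seq (right), with E15.5 as orange circles and P42 as purple squares. Cyp3a16 and Cyp4f18 are the genes shown whose embryonic libraries lie to the right of the adult ones in both assays.

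In family 4, the Cyp4a genes hydroxylate fatty acids and are textbook targets of the receptor PPARα (Ppara). Cyp4a10 went from 0 and 0.0332 to 588 and 627 TPM in liver and from 0.813 and 0.437 to 279 and 377 TPM in kidney. Its rises were 9.23 ± 0.17 and 7.65 ± 0.17. Cyp4a14 went from 0.145 and 0.0269 to 454 and 650.3 TPM in liver and from 0.0732 and 0.0591 to 232 and 349.5 TPM in kidney. Cyp4a31 was the kidney form already present in the embryo: kidney message went from 29.2 and 16.5 to 245 and 271 TPM, against 31.5 and 30.2 TPM in P42 liver.

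Cyp4b1, which bioactivates furan toxicants, was shared by kidney and lung. Kidney message went from 2.32 and 1.40 to 535 and 469.5 TPM, a rise of 7.48 ± 0.18, and lung message from 7.69 and 8.43 to 421 and 335 TPM, a rise of 5.38 ± 0.18. The P42 kidney and lung libraries did not overlap, but neither organ passed the rule for the highest tissue. In heart it went from 0.942 and 1.13 to 11.2 and 11.1 TPM, the largest heart rise at 2.58 ± 0.18, to 2.22% of the kidney level.

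The Cyp4f genes, which hydroxylate leukotrienes and long-chain fatty acids, differed in direction by organ and member. Cyp4f13 rose in retina from 1.79 and 1.51 to 20.04 and 21.1 TPM, the largest retina rise at 3.02 ± 0.17. Cyp4f14 went from 0.230 and 0.119 to 9.08 and 10.5 TPM in brain, the largest brain rise at 3.20 ± 0.12, and was listed at 0 in both E15.5 liver libraries against 188 and 212 TPM in P42 liver. Cyp4f18, a leukotriene hydroxylase of neutrophils, rose in lung from 1.78 and 2.03 to 8.22 and 7.51 TPM. In liver it fell from 3.21 and 2.68 to 0.840 and 0.836 TPM, which was not kept under every scaling.

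Cyp4f16 and Cyp4f17 were among the more abundant members of embryonic brain, retina and heart. Cyp4f16 went from 9.44 and 10.7 to 2.68 and 3.44 TPM in brain, a fall of 1.45 ± 0.19 that was not kept under every scaling. In heart it went from 6.83 and 6.58 to 1.86 and 1.84 TPM, a fall as deposited that turned to a difference of 0.14 after median-of-ratios scaling and 0.17 after centring. Cyp4f17 went from 6.66 and 6.47 to 18.9 and 16.4 TPM in retina, a rise of 1.30 ± 0.19 that held under every scaling. In brain it went from 9.85 and 8.88 to 2.70 and 2.23 TPM, a fall of 1.58 ± 0.19 that did not. Its falls in heart and lung, 1.57 ± 0.19 and 1.25 ± 0.19, were not kept either, and the heart difference was 0.04 after centring.

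Cyp4v3, whose human counterpart is mutated in Bietti crystalline retinal dystrophy, rose in 4 tissues. Liver message went from 9.24 and 5.83 to 224 and 184 TPM and lung message from 2.19 and 1.67 to 27.99 and 26.03 TPM. Retina message went from 3.29 and 4.49 to 10.7 and 12.2 TPM and brain message from 1.77 and 2.20 to 5.52 and 5.63 TPM. Cyp4x1, a P450 of brain, stood at 11.4 and 9.93 TPM in E15.5 brain and 6.52 and 7.09 TPM in P42 brain, and the difference was not called. Its liver message fell from 2.52 and 1.32 to 0.237 and 0.130 TPM, which was not kept under every scaling.

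Translational efficiency, the change of footprints relative to message, was tested where message reached 5 TPM at both stages, which few members did. In brain 2 members were tested and 1 was called in either direction (background 29.9%). This was Cyp4x1, whose footprints went from 2.32 and 3.39 to 8.68 and 8.31 TPM, a difference in efficiency of 1.89 ± 0.22 that held under every scaling (adjusted p = 1.18e-07). An antisense gene, Cyp4x1os, overlaps its exons, and reads of the pair may not be separable. In kidney 7 were tested and 2 called (background 6.48%): Cyp1b1 at 1.91 ± 0.30 and Cyp2d22 at 1.17 ± 0.28, both kept. In retina 4 were tested and 1 called (background 13.6%), Cyp1b1 at 1.28 ± 0.30, and in lung 6 and 1 (background 40.7%), Cyp2j6 at 1.04 ± 0.31. Neither was kept under every scaling. In liver 0 of 11 (background 23.5%) and in heart 0 of 1 (background 15.7%) were called by limma. At an unadjusted p below 0.05 the liver number was 2 and the heart number 1.

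Between adult kidney and liver, 15 members had 5 TPM of message in both organs and 2 differed in efficiency (background 0.956%). Cyp2c23 stood at 34.99 and 45.3 TPM of message and 10.7 and 10.6 TPM of footprints in kidney, against 402 and 299.5 and 355 and 467 TPM in liver. Its efficiency in kidney minus that in liver was -2.04 ± 0.28 (adjusted p = 1.87e-05). Cyp2j9 stood at 5.75 and 6.20 TPM of message and 3.13 and 2.77 TPM of footprints in kidney, against 6.33 and 6.18 and 0.511 and 0.717 TPM in liver, a difference of 1.35 ± 0.29. Both held under every scaling. The liver footprints of Cyp2j9 were below the 1 TPM added to each value, and with a footprint floor of 1 TPM Cyp2j9 was not tested. Cyp2c23 kept its call in each fit that left out 1 library. Cyp2j9 lost it without replicate 1 of kidney Ribo-seq (adjusted p = 0.063), kidney RNA-seq (0.052) or liver Ribo-seq (0.053), the whole range over its 8 such fits being 0.012 to 0.063.

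In P42 liver, members at 5 TPM or more of message had a median log2 ratio of footprints to message of -0.22 (47 members), against -1.02 for all 7009 such genes. These ratios were taken on TPM + 1. Among the highest was Cyp2c29, with 448 TPM of message and 783 TPM of footprints. Among the lowest were Cyp2d40, with 54.6 TPM of message and 8.97 TPM of footprints, and Cyp2j9, given above, and their order depends on the added 1. Of the 28-base words of Cyp2d40, 48.15% occur in transcripts of other genes, against 19.45% for Cyp2c29 and 5.62% for Cyp2j9. As TPM is scaled within each assay, these ratios order genes within liver and are not absolute rates.

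Genes that work with or control the P450 enzymes were taken from lists. In liver 13.4% of all tested genes were called higher by message and 47% lower, the background for each list here. The filter fixed the direction of any list gene below 1 TPM in both E15.5 libraries. How many rises in each list were of such genes is not given here. Of 8 electron donors and partners, 7 were tested in liver by message and 4 were called higher and 1 lower, with a median difference of 1.12 against -0.89 for all tested genes. The 4 rises held under every scaling and the 1 fall did not. The largest called change in this list was that of Pgrmc1. Por, the P450 oxidoreductase, rose by 2.69 ± 0.20 in liver and 1.78 ± 0.20 in kidney, and Cyb5a, cytochrome b5, by 2.34 ± 0.22 and 2.91 ± 0.22. Of 34 regulators, 33 were tested in liver, 16 were called higher, all kept under every scaling, and 4 lower, none kept, with a median of 0.96. Nr1i3 (CAR) rose in liver by 3.41 ± 0.19, and the clock factor Dbp by 5.93 ± 0.22. Nr1i2 (PXR) differed by 0.96 ± 0.13 and Hnf4a by 0.34 ± 0.18 in liver, both under the limit of 1 and not called. Ppara and Hnf4a rose in kidney by 2.12 ± 0.31 and 2.23 ± 0.18. Of 21 P450 genes of other families, 11 were tested in liver, with 7 higher and 2 lower and a median of 2.94, led by the bile acid enzymes Cyp7a1 (5.38 ± 0.10), Cyp27a1 (5.10 ± 0.20) and Cyp8b1 (5.02 ± 0.17). Of 49 other detoxification enzymes, 47 were tested in liver, with 45 higher and 1 lower and a median of 3.53. All 45 rises held under every scaling. The largest 2 were those of Inmt (10.40 ± 0.19) and Ces3a (9.65 ± 0.14).

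Sex-predominant liver P450 genes of both kinds were present in P42 liver. Their counts stand beside 13.4% higher and 47% lower over all tested genes, and 49 of 54 tested members higher. Of 10 female-predominant genes, 8 were tested in liver, with 7 higher and 1 lower (Cyp3a16) at P42 and a median of 5.90. Among the rises, Cyp2a4, Cyp2b13, Cyp2c40, Cyp2c69 and Cyp3a44 were below 1 TPM in both E15.5 libraries. The filter, passed through P42, fixed the direction of these. Of 4 male-predominant genes, 3 were tested and all 3 were higher, with a median of 4.08. Cyp2a4, Cyp2b9 and Cyp2c40, from the first list, stood at 623 and 528, 179.7 and 206 and 143 and 78.8 TPM. Cyp2d9, from the second, stood at 354 and 298 TPM, and Cyp4a12a, no member by name, at 10.6 and 4.62 TPM. Both P42 liver RNA-seq libraries held Y-linked transcripts, as given above, and the part of sex in these levels was not tested. Cyp2c69, another female-predominant gene, differed between the 2 adult liver libraries, at 344 and 118 TPM.

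In the RefSeq table, 62 of the 75 genes had a promoter, 69 windows in all. Each window was the 250 bases before the start, searched on both strands. TATAAA was in 24 of the 69 member windows (34.8%) and in 12.4% of all 32851 windows. GTTAAT was in 9 (13.04%) and 6.43%, and the dioxin response core TNGCGTG in 1 (1.45%) and 4.1%. Of the 38 members placed in liver at P42, 33 had a promoter and 18 of these held TATAAA, against 2 of 10 members placed in another tissue. Windows of duplicated genes share sequence, so these counts are descriptions. Shared sequence also limits the levels: over 50% of the 28-base words of 14 members, and over 25% of those of 34, occur in a GENCODE transcript of another gene. The share was 85.4% for Cyp2c40, 7.15% for Cyp2e1 and 0 for Cyp1b1, and the sources used here do not say how reads matching several genes were counted. Exons of 14 members overlap those of another annotated gene.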

How the data were processed

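Lysates of frozen mouse tissue contained cycloheximide, the ARTseq kit gave the footprints, and polyadenylated RNA was sequenced, per the labels' protocols. The authors deposited TPM values per gene, E15.5 and P42 in separate tables (4 in all). Per the submitters' processing notes, the tools were CASAVA 1.8.2, cutadapt 1.8.1, TopHat2 2.0.14 and featureCounts 1.6.2, with build GRCm38.p6. The annotation release, use of strand and treatment of reads matching several genes: not given in the sources used here. Identifiers were matched to GENCODE M21 (21952 of 22055).

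Values were analysed as log2(TPM + 1) with limma 3.58.1 (R 4.3.3), trended empirical Bayes, 1 group per tissue, stage and assay, over genes at 1 TPM or more in 2 libraries. Stage contrasts also needed a tissue mean of 1 TPM, and efficiency contrasts a mean message of 5 TPM in both groups. Efficiency was the interaction of assay with stage or organ over all 48 libraries. Calls needed a Benjamini-Hochberg adjusted p below 0.05 over all tested genes and a log2 difference of at least 1, two-sided. Figures and summaries used Python 3.11.15, pandas 2.3.3 and matplotlib 3.10.9.

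The members and lists were chosen with earlier results of these data known. Members were named by rule: family 1; the 3 largest called rises and falls in each tissue by message; the 3 highest per tissue and stage; those called in opposite directions; efficiency calls; and a set of well-known genes (Cyp2c44 of that set is Cyp2c23 in this annotation), 39 in all. Cyp2a4, Cyp2c40, Cyp2c69, Cyp2d40 and the list genes Por, Cyb5a, Nr1i2, Hnf4a and Ppara were added after their values were seen, as were genes listed by name alone. In data simulated from these libraries with 200 changed genes, the message stage contrasts recovered 94% to 99% of changes of 1.5 log2, the footprint ones 80% to 90% and the efficiency ones between stages 75% to 81%.

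The alternatives were median-of-ratios scaling, a pseudocount of 0.25 or 4, centring on the median gene, no filter or one of 5 TPM, the libraries of a tissue or stage alone, other efficiency floors, a replicate block, each library left out, and, added after seeing the data, the removal of calls at under 5% of the level in the highest tissue.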

Additional observations from a re-analysis of the deposited data

Results flagged for a closer look

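By message, 6 genes were called higher in 1 tissue and lower in another, and the difference between the 2 stage changes was then tested in limma. The pairs were chosen because their calls were opposite, so the tests describe the size of the difference. For Cyp2c68 the change in liver minus that in kidney was 5.02 (adjusted p = 4.13e-12). For Cyp2f2 liver minus heart was 10.52 (adjusted p = 2.12e-20), with airway markers moving in the same direction as Cyp2f2 in heart RNA-seq. For Cyp2r1 liver minus lung was 3.99 (adjusted p = 5.48e-12), and for Cyp2s1 lung minus heart was also 3.99 (adjusted p = 1.13e-10). For Cyp4f17 retina minus brain was 2.88 (adjusted p = 4.52e-09), and for Cyp4f18 lung minus liver was 2.71 (adjusted p = 3.84e-11). Of the 6 falls, that of Cyp2c68 in kidney held under every scaling.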

How the results depend on the processing

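Of 409 counts of members under alternatives other than leaving out a library, 335 stayed within 1.5 times the reported count and 74 did not. With a pseudocount of 4, the message rises numbered 3 in retina and 1 in heart, and the message falls 0 in lung, 1 in liver, 1 in kidney and 1 in heart. Footprint rises were then 13 in brain, 1 in retina and 6 in heart, and footprint falls 0 in heart, 1 in kidney and 1 in liver. E15.5 placements were 0 in brain and 9 in liver, and kidney efficiency calls 1. With 0.25, footprint falls were 3 in brain, 1 in retina and 5 in kidney, placements in retina by P42 message 2, and efficiency calls 2 in brain, 1 in heart and 2 in lung. After centring, message falls were 0 in lung, 1 in liver, 1 in kidney, 0 in heart and 1 in brain, message rises 6 in heart, footprint falls 0 in heart and 1 in liver, placements by message 0 in P42 retina, 0 in E15.5 brain and 1 in E15.5 lung, and efficiency calls 0 in retina, 1 in liver and 0 in lung. After median-of-ratios scaling, message falls were 1 in brain, 2 in heart, 2 in liver and 0 in lung, message rises 6 in heart, footprint falls 0 in heart, placements 0 in P42 retina, 0 in E15.5 brain and 1 in E15.5 lung, and retina efficiency calls 0. With a filter of 5 TPM, which tests fewer genes, message rises were 4 in brain and 1 in heart, message falls 0 in lung, 1 in liver, 0 in kidney and 0 in heart, and P42 brain placements by message 1. Footprint rises were then 8 in brain, 0 in retina, 3 in heart and 13 in lung, and footprint falls 0 in heart, 0 in kidney and 1 in liver. With no filter, footprint rises were 22 in heart, footprint falls 1 in brain and message falls 5 in kidney. With a message floor of 20 TPM, efficiency calls were 0 in brain, 0 in retina, 0 in kidney, 0 in lung and 1 between kidney and liver, and with a footprint floor of 1 TPM that last count was 1. Leaving out calls below 5% of the highest tissue gave footprint rises of 7 in brain, 0 in heart and 14 in lung, message rises of 0 in heart and message falls of 1 in kidney. The changes with pseudocount and scaling have causes that were not tested. The heart differences of Cyp2s1 (0.061) and Cyp4f17 (0.035) reversed after centring, and that of Cyp4f16 after median-of-ratios scaling (0.14) and centring (0.17).

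Leaving out 1 library moved these counts, given as lowest to highest. Message rises ranged from 1 to 2 in heart (either P42 library) and from 32 to 50 in liver (either P42 library, where fewer members pass the filter). Message falls ranged from 1 to 4 in kidney (E15.5 replicate 1, either P42 library) and 1 to 2 in lung (E15.5 replicate 1). Footprint rises ranged from 3 to 8 in retina (P42 replicate 1), 7 to 15 in heart (P42 replicate 2) and 13 to 21 in lung (P42 replicate 1). Footprint falls ranged from 1 to 3 in brain (each library) and 0 to 1 in retina (P42 replicate 2). Placements ranged from 1 to 2 in P42 brain by message (either library), 20 to 40 in P42 liver by message (either library), 24 to 38 by footprint (replicate 2), 0 to 1 in E15.5 brain (brain or retina replicate 1) and 0 to 1 in E15.5 retina (kidney replicate 1). Efficiency calls ranged from 1 to 2 in kidney (E15.5 and P42 Ribo-seq replicate 2 and RNA-seq replicate 1), 0 to 1 in liver (E15.5 RNA-seq replicate 1, either P42 Ribo-seq library), 0 to 1 in lung (P42 Ribo-seq replicate 1, RNA-seq replicate 2) and 1 to 2 between kidney and liver (replicate 1 of kidney RNA-seq, kidney Ribo-seq or liver Ribo-seq).

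The labels do not tie libraries of the same number to 1 animal. Over genes, deviations of same-numbered replicates had r from -0.45 to 0.26 between stages, with 2 of 12 pairs above 0.1, and from -0.23 to 0.38 between assays, with 6 of 12 above 0.1, so no pairing was assumed, and shared animals between assays were not tested. With the replicate block, 6 members were placed in lung by P42 footprints in place of 5, and no other count moved beyond 1.5 times. TPM carries no read counts, so counting error could not be separated from other spread.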
